A study of Mus musculus with 7 samples.

Results

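Elastic fibre genes are the subject here: elastin, a fibrillin, 3 fibulins, 3 microfibril-associated proteins and an EMILIN, measured in the lesional skin of bleomycin-treated mice with and without OX40L. They were chosen by gene symbol in the platform annotation from a list of 10 set by function, of which Mfap4 had already been noted as higher in knockout. The genotype difference of Mfap4 was therefore used in the choice and is given as a description only. Rows were found under 9 of the 10 symbols (Eln, Fbn2, Fbln1, Fbln2, Fbln5, Mfap2, Mfap4, Mfap5 and Emilin1), among 23185 genes with 1 symbol each. Fbn1 was not analysed here.

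Elastic fibres give skin its recoil. Elastin, secreted as soluble tropoelastin, is cross-linked by lysyl oxidases on a scaffold of microfibrils, which are built from fibrillins and carry the microfibril-associated glycoproteins Mfap2 and Mfap5. Fibulins, EMILIN-1 and Mfap4 bind at the interface between elastin and microfibrils, and latent TGF-beta binding proteins tether the cytokine to the same scaffold. Dermal fibroblasts make most of these proteins, and disordered elastic tissue is a known feature of fibrotic skin.

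The samples were skin of male mice on a C57BL/6 background, 9 weeks old and injected with bleomycin for 3 weeks, an agent that induces dermal fibrosis. There were 4 arrays of ox40l-/- mice and 3 of ox40l+/+ mice, called knockout and wild type below; both genotypes received bleomycin, so no untreated level is at hand. The sources used here do not give how the ox40l-/- allele was made. The series title concerns OX40L, a T cell costimulatory ligand, and inflammation-driven fibrosis. The genotype comparison asks how expression in lesional skin differs with OX40L. Values are log2 expression units from robust multi-array averaging (RMA), as deposited, so a difference of 1 is a change of 2 times. Wild type arrays 1 and 3 stood apart from the other 5 arrays. The SD over genes was 1.67 on wild type array 1 and 1.17 on wild type array 3, against 1.32 to 1.42 on the others. Spread within a genotype, as the median of the genes' SDs, came to 0.387 for the wild type arrays and 0.188 for the knockout arrays. Markers of interfollicular keratinocytes were present, with 7 of 7 above the median of the gene means, and so were markers of skeletal muscle, with 10 of 10. In whole skin, fewer cells of a type and less RNA per cell cannot be told apart. Smaller SDs between knockout arrays than between wild type arrays were also seen for most of the elastic fibre genes, 7 of 9, against 76.9% of all genes.

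Mfap4 had the largest difference of the 9 genes and was higher in knockout on average, but its genotypes overlapped on wild type array 1. Mfap4 is a fibrinogen-domain protein of microfibrils that binds tropoelastin. Its log2 values were 5.51, 5.77, 6.15 and 5.34 on knockout arrays 1 to 4 and 5.51, 4.86 and 4.68 on wild type arrays 1 to 3. Wild type arrays 2 and 3 lay below every knockout array, while wild type array 1 shared exactly the deposited value of knockout array 1 and lay above knockout array 4. The knockout arrays averaged 5.69 ± 0.35 (SD, n = 4), and the wild type arrays 5.02 ± 0.43 (SD, n = 3). The difference was 0.67 (SE 0.27), a fold of 1.59. It ran from 0.51 without wild type array 3 to 0.92 without wild type array 1 when single arrays were left out. It was above 0 in all 19 alternative runs, but some of these cannot change the difference. As the gene had been noted for this difference, nothing is read from that. With the arrays quantile-normalized again, the wild type values were 5.10, 4.87 and 4.81 and the knockout values 5.62, 5.88, 6.22 and 5.32, and the genotypes no longer overlapped. In that run the groups did not overlap in 5.01% of all genes.

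**Figure D1:**
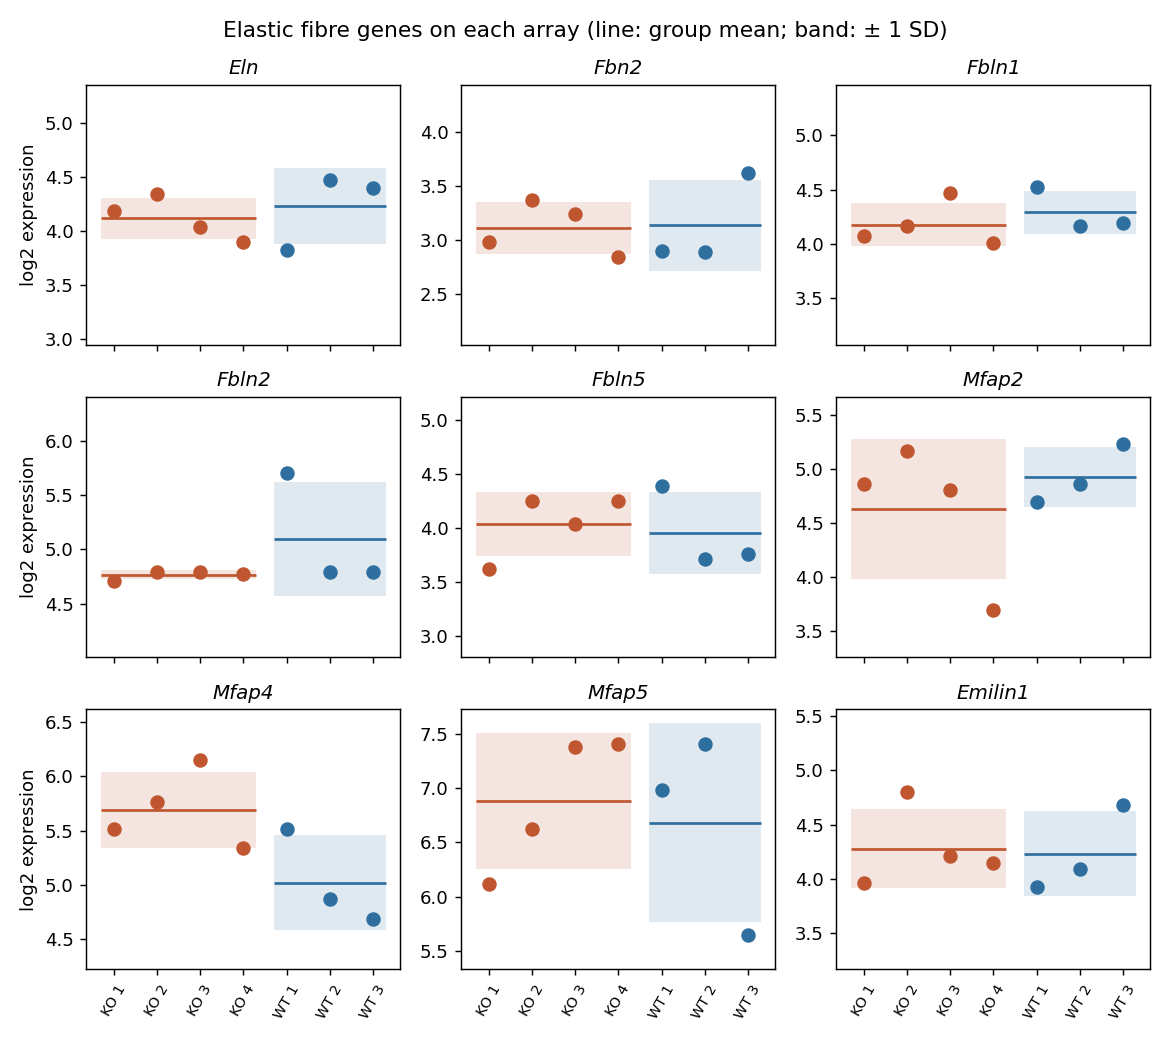
Log2 expression (vertical axis) of each elastic fibre gene on the 4 knockout arrays (KO, orange) and 3 wild type arrays (WT, blue); lines are group means, bands are 1 SD either side, and every panel spans the same number of log2 units. Mfap4 lies at 5.34 to 6.15 in knockout and at 4.68 to 5.51 in wild type, and in all 9 panels the genotypes overlap.

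Neither elastin nor the fibrillin measured separated the genotypes. Eln, the gene of elastin, was at 4.18, 4.35, 4.04 and 3.90 on knockout arrays 1 to 4 and at 3.83, 4.47 and 4.39 on wild type arrays 1 to 3. Wild type arrays 2 and 3 were above every knockout array, and wild type array 1 was below them all. For Mfap4, wild type arrays 2 and 3 lay on the opposite side of the knockout arrays. Knockout minus wild type came to -0.11 for Eln, with an SE of 0.20, a 95% confidence interval from -0.59 to 0.36 and an adjusted p of 0.9995 in limma. It was -0.32 without wild type array 1 and 0.0051 without wild type array 2. With limma's default array weights, whose estimation stopped before it converged, Eln differed by -0.34 and passed the threshold (adjusted p = 0.0379). That run gave wild type array 2 a weight of 75.4 and called 4032 of all genes. Fbn2, a fibrillin best known from developing tissue, was at 2.98, 3.37, 3.24 and 2.84 in knockout and at 2.89, 2.89 and 3.62 in wild type. Only wild type array 3 of the 3 was above the knockout range, and both other wild type arrays lay near its lower end. Its difference was -0.02 (SE 0.23, 95% confidence interval -0.57 to 0.52), and its mean over the 7 arrays, 3.12, was the only one of the 9 below the median of the gene means. The sign turned to 0.22 without wild type array 3.

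The microfibril-associated glycoproteins differed widely between arrays of 1 genotype. Mfap2, or MAGP-1, was at 4.86, 5.16, 4.81 and 3.69 in knockout and at 4.69, 4.86 and 5.23 in wild type. Knockout array 4 was the lowest, over 1 log2 unit below the other knockout arrays, and the other 6 arrays lay between 4.69 and 5.23. The difference was -0.30 (SE 0.35, 95% confidence interval -1.12 to 0.53) with all arrays and 0.016 without knockout array 4. Mfap5, or MAGP-2, was at 6.12, 6.62, 7.38 and 7.41 in knockout and at 6.99, 7.40 and 5.65 in wild type. Wild type array 3 was the lowest and knockout array 1 the next, a range of 1.76 over the 7 arrays and the widest of the 9 genes. The difference was 0.20 (SE 0.49, 95% confidence interval -0.95 to 1.36), turning to -0.31 without wild type array 3. The intervals reach beyond 1 log2 unit, upward for Mfap5 and downward for Mfap2. Emilin1, which encodes an elastin-interface glycoprotein that restrains TGF-beta processing, was at 3.96, 4.80, 4.21 and 4.14 in knockout and at 3.93, 4.09 and 4.68 in wild type. Knockout array 2 and wild type array 3 were high, and the remaining 5 arrays lay between 3.93 and 4.21. The difference was 0.05 (SE 0.26, 95% confidence interval -0.57 to 0.66). It was -0.11 without wild type array 1, -0.13 without knockout array 2, -0.024 without wild type array 2 and 0.27 without wild type array 3.

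The 3 fibulins had their highest value on wild type array 1. Fbln2, a basement membrane and elastic fibre fibulin, was at 4.71, 4.79, 4.79 and 4.78 in knockout and at 5.70, 4.79 and 4.79 in wild type. The deposited value was exactly the same on 4 arrays, and wild type array 1 alone was higher. The difference of -0.33 (SE 0.24, 95% confidence interval -0.89 to 0.23) was -0.025 without that array and -0.48 without either of the other wild type arrays. Fbln1, a fibulin of microfibril-rich matrix, was at 4.07, 4.16, 4.46 and 4.01 in knockout and at 4.52, 4.16 and 4.19 in wild type. Wild type array 1 and knockout array 3 were high and the other 5 lay within 4.01 to 4.19. Its difference was -0.11 (SE 0.17, 95% confidence interval -0.51 to 0.29) and 0.0023 without wild type array 1. Fbln5, which tethers elastin to cells through integrins and is needed for elastic fibre assembly, was at 3.62, 4.25, 4.04 and 4.25 in knockout and at 4.39, 3.72 and 3.76 in wild type. Knockout array 1 and wild type arrays 2 and 3 were low, and the other 4 arrays were above 4. The difference was 0.08 (SE 0.24, 95% confidence interval -0.47 to 0.64), and it was 0.30 without wild type array 1, turning to -0.039 without wild type array 2 and to -0.015 without wild type array 3. The adjusted p in limma was 0.9995 for each of the 8 genes other than Mfap4.

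**Figure D2:**
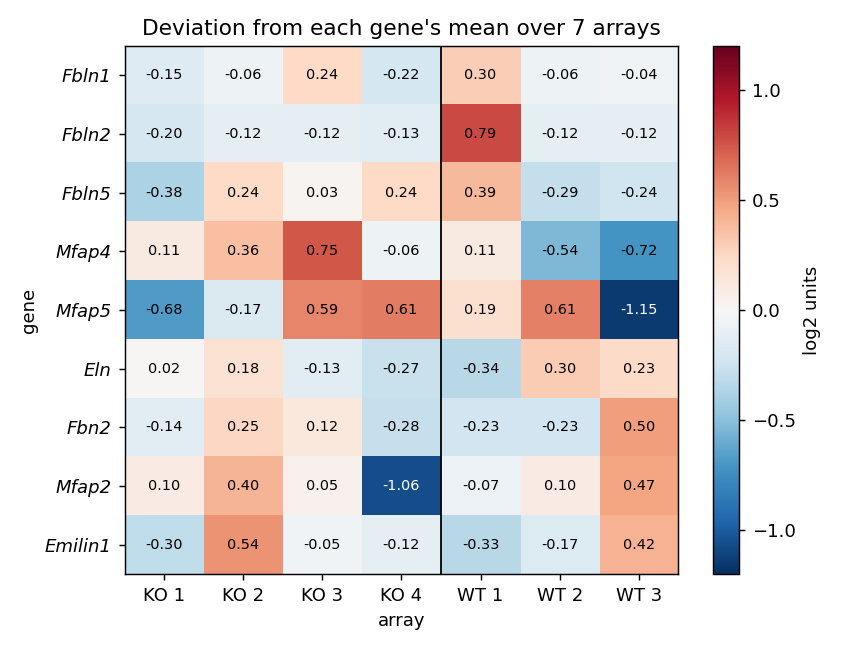
Deviation of each elastic fibre gene from its own mean over the 7 arrays, in log2 units, by array (columns: knockout, KO, and wild type, WT) and gene (rows). The 3 fibulins at the top peak on wild type array 1 (0.30, 0.79 and 0.39), Mfap4 and Mfap5 are lowest on wild type array 3 (-0.72 and -1.15), and Fbn2 and Mfap2 peak there (0.50 and 0.47).

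RefSeq promoter windows on GRCm38.p6, from 250 bases before to 50 after a transcript start, were used for 5 of the 9 genes (Fbln1, Fbln2, Fbln5, Mfap2 and Emilin1), 3 of them with 2 starts. None were found for Eln, Mfap4 and Mfap5, and Fbn2 is not reported here. Fbln2 is printed because wild type array 1 alone stood above its other arrays, and Mfap2 and Emilin1 because both were high on wild type array 3 and knockout array 2. Capitals mark GGGCGG (a GC box), CAGAC (the core of SMAD-binding elements) and CCAAT, each searched on both strands. The windows are on the plus strand: Fbln2 at chr6:91212514-91212813, Mfap2 at chr4:141010431-141010730 (the downstream of its 2 starts) and Emilin1 at chr5:30913536-30913835.
Fbln2: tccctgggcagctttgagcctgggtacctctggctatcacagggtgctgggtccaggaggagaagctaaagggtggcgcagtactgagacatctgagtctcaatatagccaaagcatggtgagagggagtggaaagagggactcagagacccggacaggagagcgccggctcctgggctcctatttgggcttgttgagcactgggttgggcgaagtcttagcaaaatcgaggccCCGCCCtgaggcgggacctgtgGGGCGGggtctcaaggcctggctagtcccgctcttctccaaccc
Mfap2: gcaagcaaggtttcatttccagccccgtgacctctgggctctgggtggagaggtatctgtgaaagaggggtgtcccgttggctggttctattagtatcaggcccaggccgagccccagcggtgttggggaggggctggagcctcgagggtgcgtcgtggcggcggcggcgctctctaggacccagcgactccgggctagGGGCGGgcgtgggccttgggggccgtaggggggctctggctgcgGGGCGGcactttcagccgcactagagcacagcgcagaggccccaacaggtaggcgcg
Emilin1: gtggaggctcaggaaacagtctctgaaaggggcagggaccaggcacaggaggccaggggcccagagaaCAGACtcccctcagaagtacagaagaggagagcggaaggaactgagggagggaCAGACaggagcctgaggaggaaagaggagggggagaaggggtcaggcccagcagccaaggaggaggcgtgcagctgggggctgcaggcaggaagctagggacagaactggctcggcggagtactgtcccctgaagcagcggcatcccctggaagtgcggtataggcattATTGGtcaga
GGGCGG occurred 2 times in the Fbln2 window and 2 times in that of Mfap2, and 0 times in that of Emilin1; 35.7% of the 32851 RefSeq windows of the same length hold it. CAGAC occurred 2 times in the Emilin1 window and 0 times in those of Fbln2 and Mfap2, against 49.6% of all windows. CCAAT occurred 1 time in the Emilin1 window and 0 times in the other 2, against 37.4% of all windows. The upstream window of Mfap2, not printed, held 1 CAGAC, 1 CCAAT and 0 GGGCGG. The letters TATAAA were in 0 of the 8 windows of the 5 genes, and 13.6% of all windows hold them. G and C made up 60.3% of the Fbln2 window, 68.0% of the Mfap2 window and 61.7% of the Emilin1 window, above the median of 52.7%. Emilin1 thus shared CAGAC and CCAAT with the upstream window of Mfap2 and no motif searched with the downstream one. This sharing is not particular to them. A window of Fbln5, not printed, also held both CAGAC and CCAAT, and every Fbln1 and Fbln5 window held CAGAC. These are matches of letters, not measured binding sites.

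Across the 9 genes, 4 were higher and 5 lower in knockout, with a median difference of -0.02 against 0.01 over all genes. In limma 0 of the 9 passed an adjusted p under 0.05, where 1 of 23185 genes did, or 0.00431%. With the default array weights named above, 2 did, Eln and Mfap4, beside 4032 of the 23185 genes, and nothing is read from that. At an unadjusted p under 0.05 there was 1 of 9, Mfap4, the gene noted beforehand for this difference, beside 436 of all genes, or 1.88%, and nothing is read from it. The genotypes were separate in 0 of the 9, beside 443 of all genes, or 1.91%. Without wild type array 1 they were separate in 2 of the 9, Eln and Mfap4, in opposite directions, while 7.84% of all genes were then separate. Array medians over the 9 genes, after subtracting each gene's mean, ran from -0.15 on knockout array 1 to 0.24 on knockout array 2, and the wild type arrays lay within that range at 0.11, -0.12 and -0.038. The highest value of a gene fell on wild type array 1 in 3 genes, on wild type array 3 in 2, and on wild type array 2 and knockout arrays 2, 3 and 4 in 1 each. Among the 36 pairs of these genes, the closest profiles were those of Fbn2 and Emilin1, with a root-mean-square difference of 0.16 log2 units between profiles centred on their own means, followed by Fbln1 and Fbln2 at 0.24. The farthest were Mfap2 and Mfap5, the MAGP pair, at 0.999. The 7 arrays give these likenesses no test, and arrays that stand apart weigh on them.

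**Figure D3:**
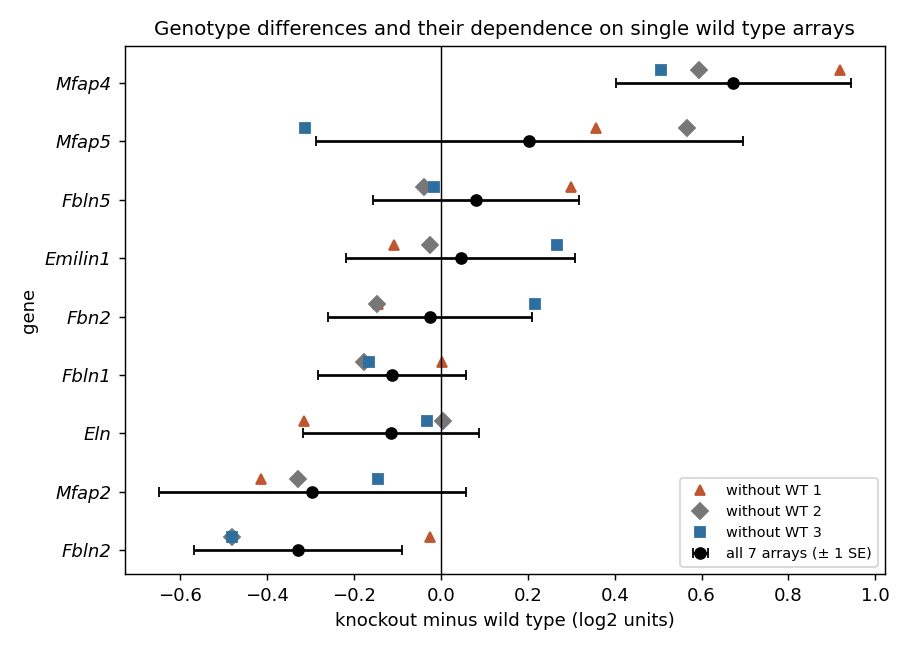
Knockout minus wild type difference of each elastic fibre gene in log2 units with all 7 arrays (black points, bars 1 SE either side) and with wild type (WT) array 1, 2 or 3 left out (triangles, diamonds, squares). Mfap4 stays between 0.51 and 0.92, while Mfap5, Emilin1, Fbn2 and Fbln5 lie on either side of 0 according to the array left out. Eln and Fbln1 also cross 0, reaching 0.0051 without WT array 2 and 0.0023 without WT array 1.

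Over all genes, the profiles most like that of Mfap4 were those of Ube2v1, a ubiquitin-conjugating enzyme variant, at a root-mean-square difference of 0.18, Gdpd3, a glycerophosphodiester phosphodiesterase family member, at 0.19, and Pex11a, a peroxisome proliferation factor, at 0.205. Zswim1 at 0.22 and Zfp943 at 0.23 followed. Like Mfap4, Ube2v1 was highest on knockout array 3 (3.42) and lowest on wild type array 3 (2.11). The closest to Eln were Zfp956 at 0.062, Nfkbil1 at 0.077, Pramel25 at 0.083, Abcb5 at 0.086 and Defb12 at 0.088. Pramel25, with values of 1.21 to 1.88, was dim on every array. The nearest elastic fibre gene to Eln was Fbn2, at 0.26.

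The other genes of the pathway, taken from 8 lists, included 76 measured of 84 listed. Of these, 34 were higher in knockout and the rest lower, apart from a receptor gene with the same value on every array. The median difference was -0.01. In limma 0 of the 76 passed an adjusted p under 0.05, beside 0.00431% of all genes. An unadjusted p under 0.05 was found for 1, Serpina1b, beside 1.88% of all genes. The genotypes were separate in 0 of the 76, beside 1.91% of all genes. Nothing is read from these counts. Relatives of the fibulins, EMILINs and microfibril-associated proteins were higher in 7 and lower in 4 of 11 (median 0.08). That median was -0.0036 without wild type array 1, 0.0028 without wild type array 3 and 0.029 without knockout array 3. Among them Efemp1, the gene of fibulin-3, differed by 0.57 (SE 0.58) and Hmcn1, a giant extracellular fibulin-family protein, by -0.25 (SE 0.16). Efemp1 was at 7.22, 7.42, 7.71 and 7.82 in knockout and at 7.15, 8.24 and 5.52 in wild type. Its low value on wild type array 3 is shared with Mfap4 and Mfap5, and with genes of other lists such as Bgn and Dcn. Fbn2 and Mfap2 were highest on that array, which had the smallest SD over genes, 1.17. Latent TGF-beta binding proteins and TGF-beta ligands were lower in 6 of 7 by small amounts (median -0.08), Tgfb1 by -0.27 (SE 0.16) and Ltbp4, which helps fibulin-5 onto microfibrils, by -0.15 (SE 0.18). The median was 0.051 without wild type array 3 and -0.15 without wild type array 2.

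Lysyl oxidases and their partners, which cross-link elastin and collagen, were lower in 5 of 7 (median -0.17). The median was -0.062 without wild type array 1 and -0.297 without wild type array 3. Bmp1, a procollagen proteinase that also activates lysyl oxidase, differed by -0.48 (SE 0.24), and Loxl4 by -0.17 (SE 0.15). ADAMTS family proteins and proteoglycans that bind microfibrils were higher in 7 and lower in 5 of 12 (median 0.10), Adamtsl1 by -0.29 (SE 0.15) and Adamtsl5 by 0.29 (SE 0.20). This median was -0.037 without wild type array 1, 0.0099 without knockout array 3 and 0.054 without wild type array 2. Elastin-degrading proteases were higher in 5 and lower in 5 of 10 (median -0.003); leaving out single arrays took the median from -0.298 (wild type array 3) to 0.104 (wild type array 1). Mmp2, gelatinase A, was at 3.71, 4.62, 4.64 and 4.12 in knockout and at 6.28, 4.88 and 4.00 in wild type, so that wild type array 1 alone was far above the rest. Its difference was -0.78 (SE 0.52), and that of Elane, neutrophil elastase, was 0.33 (SE 0.23). Inhibitors of these proteases were higher in 7 and lower in 4 of 11 (median 0.10), and without wild type array 3 the median was -0.22, without knockout array 2 it was 0.047. The alpha-1-antitrypsin copies Serpina1b and Serpina1e, which differed by 0.87 (SE 0.37) and -1.83 (SE 0.86), are near-identical genes that probes may not separate, and their values are uncertain.

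Cell receptors of elastic fibres were higher in 5 of 13 (median -0.02) and lower in the rest, apart from a gene with the same value on every array. Without wild type array 1 the median was 0.13, and without wild type array 3 it was -0.21. Itgb3, an integrin subunit that pairs with the alpha v chain to bind fibulin and fibrillin, differed by 0.22 (SE 0.16), and Glb1, whose splice form is the elastin-binding protein, by -0.29 (SE 0.21). Genes of inherited cutis laxa and elastin secretion were lower in 5 of 5 measured (median -0.25). Atp6v0a2 and Atp6v1e1, subunits of the vacuolar proton pump, differed by -0.48 (SE 0.39) and -0.37 (SE 0.47). Wild type array 1 carried the highest values of both, 4.95 and 6.91, and without it the list's median was 0.088. It was -0.41 without wild type array 2 and -0.604 without wild type array 3. With the default array weights it was 0.080. The adjusted p in limma was 0.9995 for each of the genes named from these lists.

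**Figure D4:**
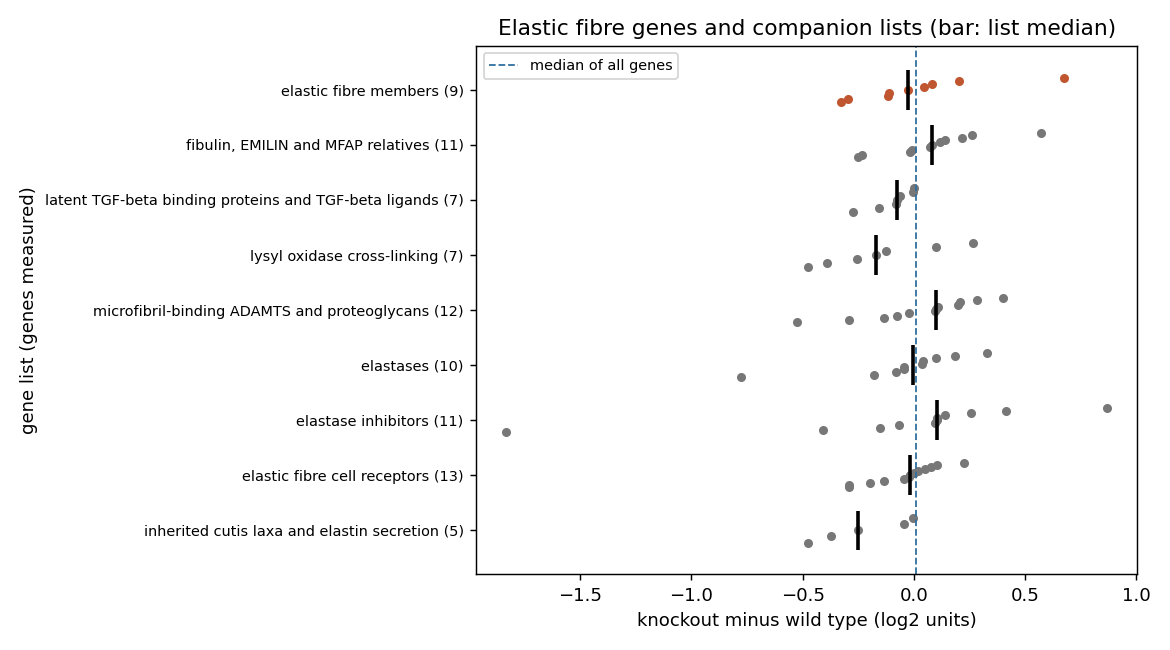
Knockout minus wild type difference in log2 units of each measured gene (points) in the elastic fibre genes (orange) and 8 companion lists (grey), with list medians (black bars) and the median of all genes (dashed). List medians lie between -0.25 and 0.10, and Mfap4 at 0.67 is the rightmost of the elastic fibre genes.

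Among the cell markers, some sets moved with single arrays, and in the red cell set 1 gene, Hbb-b1, separated the genotypes. Red cell markers, 4 measured of 7 listed, had means of 4.46 to 4.70 in knockout and 3.74 to 3.95 in wild type, with no overlap. Of these 4, Hbb-b1, a beta globin gene, was at 9.67, 9.27, 10.28 and 9.88 in knockout and at 6.62, 6.54 and 6.34 in wild type. The genotypes overlapped in the other 3, Hbb-bs, Alas2 and Slc4a1, and in the set's median after subtracting each gene's mean. The mean log2 value of 10 fibroblast markers was 4.87 on wild type array 3, against 6.41 and 6.03 on wild type arrays 1 and 2 and 5.52 to 6.13 in knockout. Mfap4 and Mfap5 were also lowest on wild type array 3. So were 7 of the 10 sets of cell markers by their means, those of fibroblasts, smooth muscle, skeletal muscle, keratinocytes, adipocytes, endothelium and macrophages. On wild type array 2 the fibroblast mean was high, at 6.03, while Mfap4 was low, at 4.86. Knockout array 3, where Mfap4 peaked, had the highest fibroblast mean in knockout. In 10 smooth muscle and pericyte markers the mean ran from 4.89 to 5.19 in knockout and from 4.62 to 5.26 in wild type, and in 6 endothelial markers from 4.50 to 4.96 and from 4.38 to 4.78. The mean of 12 hair follicle markers was 7.79 on wild type array 1, where the 3 fibulins peaked, against 3.47 to 4.79 on the other 6 arrays. Markers of cartilage and perichondrium, another source of elastic matrix, had means of 3.01 to 3.24 in knockout and 2.84 to 3.35 in wild type, and 2 of the 7 were above the median of the gene means. The part of these cell types in the values of the elastic fibre genes was not tested.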

How the data were processed

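Log2 expression values of 7 Affymetrix arrays were used as the authors deposited them, after RMA per the submitters' processing notes; version, probe-set definition and genome build are not given in the sources used here. Total RNA was labelled with a whole-transcript sense target kit, per the labels' protocols. Of 25206 probe sets, 23185 had 1 gene symbol in the platform annotation, 0 several and 2021 none, and no gene had more than 1 probe set. RMA summarizes probes by median polish, which can give the same value on several arrays; this held for 54.3% of genes and for 4 of the 9 elastic fibre genes.

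Genotypes, taken from the sample titles, were tested in R 4.3.3 with limma 3.58.1 (lmFit, eBayes, two-sided, Benjamini-Hochberg over all 23185 genes, threshold 0.05), as knockout minus wild type. The procedure was tested on simulated data. These took the knockout SDs for both genotypes and held no outlying arrays and no tied values. They therefore do not show how the fit behaves on arrays like the present ones. The members and lists were chosen with earlier results of these data known. The elastic fibre genes were all named, with the 2 genes of smallest p in each companion list and the 5 nearest profiles of Mfap4 and Eln; predicted genes, small RNAs and olfactory or vomeronasal receptors were left out of the last. Alternatives were other moderation, dim-gene filters (30% and 50%), renormalization, limma's default array weights, blocks, all probe sets and left-out arrays. Gene-by-gene array weights were added after seeing the data, once the default weights had not converged and had called many genes.

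The design text counts 3 and 4 mice, but sample codes share numbers. Numbers 16 and 17 are each shared within a genotype. Number 18 is shared by wild type array 3 and knockout array 3, so a shared number need not mean a shared animal. Whether every sample came from its own animal is not settled. The p-values speak only for the variation seen among the 7 arrays, part of which could be technical. Precision is limited by how few arrays there are. Figures were drawn with matplotlib 3.10.9 in Python 3.11.15.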

Additional observations from a re-analysis of the deposited data

Results flagged for a closer look

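In 4 of 34 groups of 4 knockout arrays examined (the elastic fibre genes, the companion genes named and the list medians), 1 array lay far from the other 3. The limit used is passed by chance in about 1 in 20 groups of independent, untied values. Exact ties are common here and the list medians hold some of the same genes, so that rate does not apply to these groups and the count is not set against it. None of the 4 is an elastic fibre gene. For Tgfb1 the gap took 1.0 of the range, since 3 knockout arrays share 1 exact value and knockout array 4 was lower at 4.86. For Ltbp4 the gap was 0.871 of the range, with knockout array 1 low at 4.52. For Adamtsl5 it was 0.880, with knockout array 1 high at 5.20. For Atp6v0a2 it was 0.917, with knockout array 4 low at 3.18.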

How the results depend on the processing

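With 7 arrays, only large differences in a single gene can be resolved. Elastic fibre genes passed the adjusted threshold in 1 of the 19 alternatives, limma's default array weights. There 2 did, Eln and Mfap4 (differences of -0.34 and 0.857), and so did 4032 of all genes. Its estimation stopped before converging and gave wild type array 2 a weight of 75.4 against 0.106 to 1.19 for the others. Gene-by-gene weights were then added, after this outcome was seen; they called 1 gene and 0 elastic fibre genes. Of 170 differences recomputed, 146 kept their direction and 24 turned. Mfap4 and Fbln2 turned in none of theirs. Other moderation, the dim-gene filters and all probe sets cannot change a gene's difference. The replicate block gave the same differences as leaving out knockout array 4. The count of kept directions is therefore no measure of stability. The count over all genes fell from 1 to 0 with other moderation, quantile normalization, centring, the replicate block, the code suffix as a block, all probe sets, wild type arrays 1 and 3 both left out, and each single array left out (0 to 0). Genotypes were separate in 1 elastic fibre gene after quantile normalization (5.01% of all genes) and in 2 of 9 without wild type arrays 1 and 3 (37.5% of all genes). With single arrays left out they were separate in 0 to 2, and in 3.09% to 21.4% of all genes; the 2 came without wild type array 1 (7.84%), and 21.4% without wild type array 3, where there were 0. Default array weights gave list medians of -0.040 (fibulin relatives), 0.101 (TGF-beta binding) and -0.0089 (ADAMTS), and 0.24 for Fbn2, 0.028 for Fbln1 and -0.52 for Mfap5. Gene-by-gene weights gave list medians of -0.034 (fibulin relatives), 0.075 (TGF-beta binding) and -0.023 (ADAMTS), and 0.21 for Fbn2, 0.0089 for Fbln1 and -0.43 for Mfap5. Without wild type arrays 1 and 3 the same values were -0.053, 0.093, -0.0068, 0.22, 0.015 and -0.52. Replicate numbers did not pair the samples (correlations of deviations of -0.086, -0.15 and 0.034 for numbers 1 to 3). As a replicate block they gave 0.065 for Fbn2 and 0.016 for Mfap2. The code number as a random block gave -0.016 for Emilin1. With single arrays left out, differences ran from -0.32 to 0.0051 for Eln, -0.15 to 0.22 for Fbn2, -0.21 to 0.0023 for Fbln1, -0.039 to 0.30 for Fbln5, -0.47 to 0.016 for Mfap2, -0.31 to 0.57 for Mfap5 and -0.13 to 0.27 for Emilin1. List medians ran from -0.15 to 0.051 for TGF-beta binding, -0.037 to 0.13 for ADAMTS, -0.30 to 0.10 for elastases, -0.22 to 0.14 for their inhibitors, -0.21 to 0.13 for receptors, -0.0036 to 0.106 for fibulin relatives, -0.297 to -0.062 for lysyl oxidases and -0.604 to 0.088 for cutis laxa genes. The cause of these shifts was not tested.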
